A study of Homo sapiens with 9 samples.

Results

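ANKRD19P, ANKRD36, ANKRD36B and ANKRD36C are 4 of the 57820 genes in the count table of the Chrom-seq experiment with the H3K9me3 reader CBX1. ANKRD19P and ANKRD36 were taken because the study shows both loci as browser examples beside the antibody-based method PIRCh-seq, in a section on several readers and mainly on H3K4me3, and ANKRD36B and ANKRD36C because they are paralogs of ANKRD36. They were picked by name, and no measured value entered the rule. Which reader's libraries those examples show is not stated in the text used here. Neither the libraries of other readers nor the PIRCh-seq data were analysed. The values below therefore do not check the comparison with PIRCh-seq. Chrom-seq labels RNA in living cells by bringing the peroxidase APEX2 to marked chromatin through a reader protein, so that biotin-aniline is attached to RNA close to the mark and the RNA can be captured on streptavidin. The libraries came from HEK293T cells, an established human embryonic kidney line, which co-expressed for 48 hours a GCN4 (SunTag) peptide array and APEX2 fused to the antibody fragment that binds the array. The array carried no reader in the control group, the CBX1 chromodomain in the CBX1 group, and the same chromodomain with the W42A change in the CBX1_W42A group, with 3 libraries in each. Every group was pulsed with hydrogen peroxide (1 mM, 1 min) after 30 min in 500 µM biotin-aniline, so the control shares the peroxidase and the labeling and lacks the reader alone. The endogenous CBX1 gene remained in every group, and the readers came from plasmids.

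Ankyrin repeats are short helical motifs that stack into a surface for binding other proteins. ANKRD36, ANKRD36B and ANKRD36C are products of segmental duplication on chromosome 2, and little is known of what their proteins do. ANKRD19P is a transcribed pseudogene, a gene copy whose transcript is not thought to encode the ancestral protein. The CBX1 chromodomain binds trimethylated lysine of histone H3 in constitutive heterochromatin, and tryptophan 42 lies in the aromatic cage that holds the methyl groups. The comparison of CBX1 with the reader-free control asks which RNAs lie near H3K9me3, and the comparison with W42A asks how much of this needs the intact cage.

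The members lie at 2 loci of hg19. ANKRD36C (ENSG00000174501.10, protein coding) spans 143 kb of the minus strand at chr2:96514587-96657541. ANKRD36 (ENSG00000135976.12, protein coding) spans 151.03 kb of the plus strand at chr2:97779233-97930258. ANKRD36B (ENSG00000196912.8), annotated as a pseudogene in GENCODE v19 and as protein coding in v44, spans 97.5 kb of the minus strand at chr2:98108978-98206428. ANKRD19P (ENSG00000187984.8, pseudogene) spans 79.3 kb of the plus strand at chr9:95571670-95650975 in v19, where the v44 annotation lists a single transcript over 16.9 kb. The counts covered whole spans, introns included, and left out stretches shared with another gene of the same strand. Of the span, 100% was free of such genes for ANKRD36 and ANKRD36C, 98.9% for ANKRD36B and 92.1% for ANKRD19P.

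The paralogs resembled each other so closely that their sequences bear on every value below. Over aligned coding bases, ANKRD36 was 96.9% identical to ANKRD36B and 96.3% identical to ANKRD36C, and ANKRD36B was 96.4% identical to ANKRD36C. The stretch in which the 3 differ most lies in the first coding exon. It is printed here 5′ to 3′ on the coding strand, from GRCh37, because reads covering it can be assigned to a copy, and capitals mark the 15 columns of 90 in which the copies are not all equal.
ANKRD36 (chr2:97779538-97779627): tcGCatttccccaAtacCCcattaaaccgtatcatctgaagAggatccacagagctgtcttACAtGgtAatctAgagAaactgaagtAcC
ANKRD36B (chr2:98206034-98206123): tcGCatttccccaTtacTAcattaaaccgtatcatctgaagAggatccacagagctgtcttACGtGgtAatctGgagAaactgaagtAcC
ANKRD36C (chr2:96657306-96657395): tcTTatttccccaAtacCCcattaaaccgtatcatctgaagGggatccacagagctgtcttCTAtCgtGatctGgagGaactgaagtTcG
In these 90 bases ANKRD36C had a base of its own in 10 columns, ANKRD36B in 4 and ANKRD36 in 1. The second coding exon, by contrast, holds a stretch with no difference at all, shown because a read wholly inside it fits all 3 copies equally well. Full-length reads of the study were paired and longer than this stretch, so they reach beyond it.
ANKRD36, ANKRD36B and ANKRD36C (chr2:97783805-97783894, chr2:98201768-98201857 and chr2:96652861-96652950): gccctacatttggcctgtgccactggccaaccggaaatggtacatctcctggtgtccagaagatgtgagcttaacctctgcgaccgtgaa
Of 1416 windows of 90 coding bases aligned within an exon in the 3 copies, 291 (20.6%) were identical in this way.

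Across the gene spans, 100-base windows were looked up on both strands of GRCh37 to see how much of each member occurs only once. The share found once was 98.1% for ANKRD19P, 70.0% for ANKRD36C, 59.3% for ANKRD36 and 53.4% for ANKRD36B. Among windows with no fewer exonic than other bases, it was 100% for ANKRD19P, 69.5% for ANKRD36C, 39.1% for ANKRD36 and 28.8% for ANKRD36B. Of these exonic windows of ANKRD36B, 67.3% had an exact copy in ANKRD36 and 14.6% in ANKRD36C, and of those of ANKRD36, 57.8% had one in ANKRD36B. No window of ANKRD19P was found in any of the 3 paralogs. These windows are shorter than the study's full-length paired reads. The shares describe the sequence, and the share of reads that fit several places was not measured. How reads fitting several places were counted is not given in the sources used here, so the counts of single paralogs are uncertain wherever the copies agree, and their sum is given beside them.

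**Figure D1:**
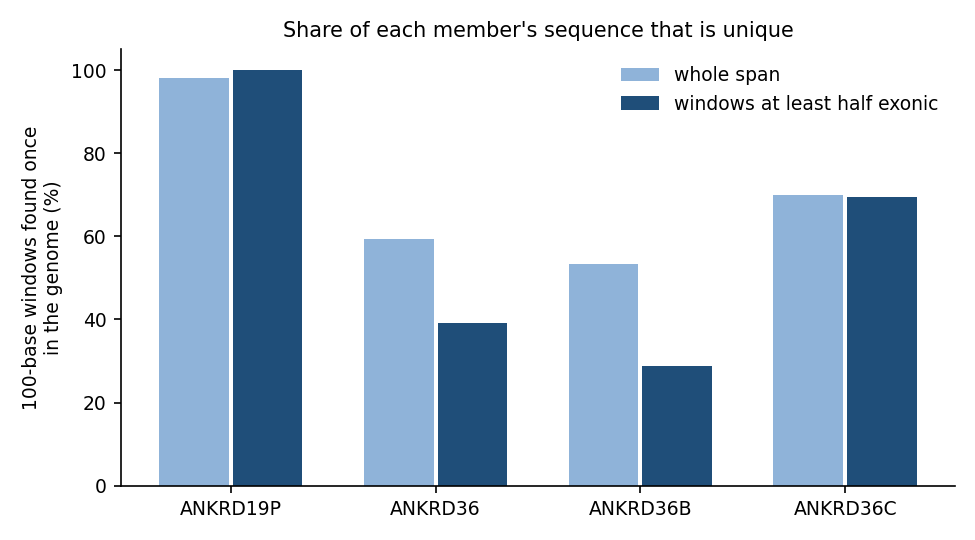
Share of 100-base windows, in percent, that occur once in GRCh37, for each member over the whole span (light) and over mostly exonic windows (dark). ANKRD19P reached 98.1% and 100%, and ANKRD36B was lowest at 53.4% and 28.8%.

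The upstream sequences of the paralogs were nearly equal as well. The RefSeq promoter table (GRCh38.p14) matched 2 of the 4 members, ANKRD36B and ANKRD36C, and not ANKRD36 or ANKRD19P. The part upstream of both starts that lines up without gaps, 210 bases on the minus strand, is shown because it differs at a single base, in capitals.
ANKRD36B (chr2:97589878-97590087): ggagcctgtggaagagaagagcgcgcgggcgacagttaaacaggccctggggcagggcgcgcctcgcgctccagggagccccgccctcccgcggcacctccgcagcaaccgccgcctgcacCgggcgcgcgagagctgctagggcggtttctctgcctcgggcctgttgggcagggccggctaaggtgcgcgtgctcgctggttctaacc
ANKRD36C (chr2:95991865-95992074): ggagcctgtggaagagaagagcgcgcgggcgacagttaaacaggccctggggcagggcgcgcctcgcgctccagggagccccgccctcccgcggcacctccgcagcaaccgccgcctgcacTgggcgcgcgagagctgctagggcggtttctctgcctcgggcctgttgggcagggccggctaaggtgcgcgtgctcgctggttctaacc
Both promoters were rich in CpG, the dinucleotide that DNA methylation targets, with 34 CpG in the 300 listed bases for ANKRD36B and 28 for ANKRD36C against a median of 14 over 35116 listed promoters.

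The 9 libraries held between 8379542 and 11082852 counts. No library pair of a group was identical, and each pair differed by more than counting noise. The HEK293T markers NEFM, VIM and CDH2 stood between 124 and 583 CPM, and PAX2 and LHX1 between 3.84 and 20.2 CPM. CPM are counts brought to a common library total. For the markers this was the plain total, and for the levels below it was scaled with TMM factors. Of markers of cells that the culture should not hold, PTPRC had 0 to 2 counts a library, COL1A2 had 0, ALB had 4 to 25, and PECAM1 was not analysed here. The labels number the replicates without saying whether they were separate cultures, so the p-values measure the spread between these libraries, which may be technical. The control and CBX1 samples were registered in a single run of numbers, and the CBX1_W42A samples apart from it. Whether they were prepared or sequenced at another time is not stated. A batch therefore cannot be told apart from the W42A change. In pooled cells, more RNA per cell and more cells with the RNA cannot be told apart, and without the total RNA of the same cells neither can capture and abundance.

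ANKRD19P was the most abundant member. The control libraries held 1225, 943 and 1033 counts of ANKRD19P in replicates 1 to 3, the CBX1 libraries 1148, 1043 and 1448, and the CBX1_W42A libraries 1374, 1207 and 1417. In CPM these were 119, 107 and 125 in the control, 128, 116 and 140 with CBX1, and 126, 127 and 150 with CBX1_W42A. The CBX1 group overlapped both others. The lowest CBX1_W42A library stood barely above the highest control library (125.9 against 124.8 CPM), and replicate 3 was the highest of its group in each. The group means were 117 ± 9.22, 128 ± 12.3 and 134 ± 13.6 CPM (SD, n = 3) in this order, against a median of 12.5 CPM over 20066 genes in the control, where ANKRD19P stood above 89.5% of them.

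For ANKRD36, the control libraries held 487, 492 and 463 counts, the CBX1 libraries 526, 689 and 544, and the CBX1_W42A libraries 636, 762 and 613. The levels of ANKRD36 were 47.3, 55.7 and 55.9 CPM in the control, 58.6, 76.4 and 52.6 CPM with CBX1, and 58.3, 80.3 and 64.9 CPM with CBX1_W42A. Every CBX1_W42A library was thus above every control library, while CBX1 replicate 3 fell within the control range. Of all genes tested, 11.9% had every CBX1_W42A library above the control and 12.8% below. The means were 53.0 ± 4.93, 62.5 ± 12.3 and 67.8 ± 11.3 CPM (SD, n = 3).

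ANKRD36B was the least abundant member, with 213, 227 and 193 counts in the control, 276, 337 and 270 with CBX1, and 349, 372 and 321 with CBX1_W42A. Its levels were 20.7, 25.7 and 23.3 CPM, then 30.8, 37.4 and 26.1 CPM, then 31.97, 39.2 and 34.0 CPM. All 6 libraries with a reader were above all 3 control libraries, CBX1 replicate 3 by the smallest margin, and the reader groups overlapped each other. Taken singly, CBX1 was wholly above the control for 19.2% of genes tested and below for 18.3%. For CBX1_W42A these were 11.9% and 12.8%. The share with both readers above was not counted. The means of ANKRD36B were 23.2 ± 2.51, 31.4 ± 5.64 and 35.0 ± 3.72 CPM (SD, n = 3).

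For ANKRD36C, the counts were 519, 445 and 439 in the control, 530, 588 and 512 with CBX1, and 733, 830 and 580 with CBX1_W42A. Its levels were 50.4, 50.4 and 53.0 CPM, then 59.1, 65.2 and 49.6 CPM, then 67.1, 87.4 and 61.4 CPM. On this scale CBX1 replicate 3 was below every control library, and all CBX1_W42A libraries were above them. The latter held for 11.9% of all genes tested, and the reverse for 12.8%. The means of ANKRD36C were 51.3 ± 1.54, 57.9 ± 7.87 and 72.0 ± 13.7 CPM (SD, n = 3). In both reader groups replicate 2 had the highest level of all 3 paralogs, and in the control this held for ANKRD36B alone.

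**Figure D2:**
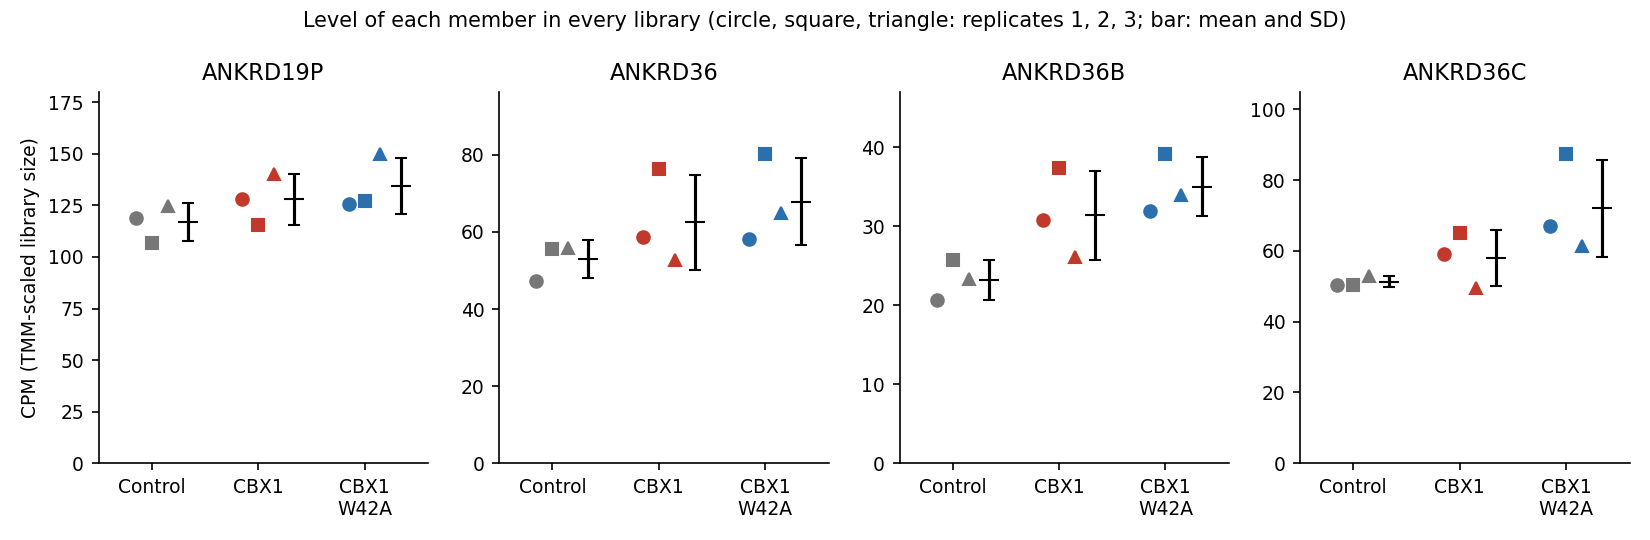
Level of each member in CPM in every library, by group; circles, squares and triangles are replicates 1, 2 and 3, and bars give the mean and SD of 3 libraries. For ANKRD36B the control libraries end at 25.7 CPM and the reader libraries begin at 26.1 CPM, whereas for ANKRD19P the CBX1 libraries overlap the control and the CBX1_W42A libraries begin at 125.9 CPM, next to a control library at 124.8 CPM.

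Per kb of the span free of other genes, the mean control level was 1.60 ± 0.126 CPM per kb for ANKRD19P, 0.359 ± 0.0108 for ANKRD36C, 0.351 ± 0.0326 for ANKRD36 and 0.241 ± 0.0260 for ANKRD36B (SD, n = 3). ANKRD36C and ANKRD36 did not differ beyond their spread in the control, with libraries between 0.352 and 0.371 CPM per kb and between 0.313 and 0.370 CPM per kb. ANKRD36B lay below both and ANKRD19P above all 3, with no overlap between libraries. These lengths take no account of sequence that occurs in several places. The share of the span found once was 98.1% for ANKRD19P, 70.0% for ANKRD36C, 59.3% for ANKRD36 and 53.4% for ANKRD36B. How far this shaped the levels per kb was not tested. With CBX1 the means per kb were 1.75 for ANKRD19P, 0.414 for ANKRD36, 0.405 for ANKRD36C and 0.326 for ANKRD36B, and with CBX1_W42A 1.84, 0.449, 0.504 and 0.363. The place of ANKRD36 and ANKRD36C in this order therefore changed between groups while their libraries overlapped in each. The distance of ANKRD19P from the rest depends on the length used. It was 4.46 times the level of ANKRD36C per kb of span and 26.6 times per kb of exon in v44, where ANKRD19P has 0.862 kb of exon.

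With CBX1 against the control, all 4 members had a positive log2 fold change and 0 of 4 were enriched, that is, past an adjusted p of 0.05 and a log2 fold change of 0.75 by the quasi-likelihood test of edgeR, with p-values adjusted by Benjamini-Hochberg over 18837 genes. Of all genes tested, 7.06% were enriched and 0.34% depleted. DESeq2 also called 0 of 4. ANKRD36B alone passed on the adjusted p, where 10.6% of genes did so upward and 9.46% downward, at a log2 fold change of 0.46 (standard error, SE, 0.14, 95% interval 0.16 to 0.75, adjusted p = 0.0286). It was also the only member with an unadjusted p below 0.05 (18.2% of genes upward, 16.1% downward) and the only member whose CBX1 libraries were all above the control libraries, as they were for 19.2% of genes (all below for 18.3%). ANKRD36 had a log2 fold change of 0.26 (SE 0.13, adjusted p = 0.157), ANKRD36C of 0.20 (SE 0.11, adjusted p = 0.217) and ANKRD19P of 0.15 (SE 0.10, adjusted p = 0.300). The upper ends of their 95% intervals were 0.53, 0.43 and 0.36, below the log2 threshold of 0.75. Summed over the 3 paralogs, the log2 fold change was 0.27 (SE 0.11, adjusted p = 0.0911). The pass of ANKRD36B on the adjusted p was lost without CBX1 replicate 2 (log2 fold change 0.31, adjusted p = 0.151) or control replicate 1 (0.37, adjusted p = 0.109). It was also lost without control replicate 3 (0.47, adjusted p = 0.0674) or CBX1 replicate 1 (0.47, adjusted p = 0.0625). The sum passed at an adjusted p of 0.0358 with upper-quartile factors, 0.0352 with the library size alone, 0.0484 without the filter on low counts and 0.0437 without CBX1 replicate 3.

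With CBX1_W42A against the same 3 control libraries, again all 4 members had a positive log2 fold change and 0 of 4 were enriched, by edgeR and by DESeq2, where 0.974% of 18680 genes were enriched and 0.0214% depleted. On the adjusted p alone 2 of 4 passed, ANKRD36B and ANKRD36C, against 1.37% of genes upward and 1.25% downward. The copies share sequence, so these are not separate pieces of evidence. ANKRD36B had a log2 fold change of 0.59 (SE 0.14, 95% interval 0.30 to 0.87, adjusted p = 0.0306) and ANKRD36C of 0.48 (SE 0.13, 95% interval 0.21 to 0.75, adjusted p = 0.0497, at the edge of the threshold). ANKRD36 had 0.35 (SE 0.13, adjusted p = 0.144, unadjusted p = 0.0135, a level under 0.05 that 9.66% of genes reached upward and 9.61% downward) and ANKRD19P 0.19 (SE 0.11, adjusted p = 0.353). For the 3 paralogs each CBX1_W42A library was above each control library, as for 11.9% of genes (all below for 12.8%). For ANKRD19P this depended on the scale: the groups overlapped when TMM factors came from the 6 libraries compared, as in the test (lowest 122.8 and highest 124.8 CPM), and not when they came from all 9, as for the levels above. That percentage is on the scale of the 6 libraries. The sum of the paralogs had a log2 fold change of 0.45 (SE 0.12, adjusted p = 0.0474). These passes rested on the full set of libraries. The sum lost its pass without any 1 of the 6 libraries, with an adjusted p between 0.0539 (without CBX1_W42A replicate 1) and 0.159 (without control replicate 1), and without CBX1_W42A replicate 2 its log2 fold change was 0.31. ANKRD36C passed only without CBX1_W42A replicate 3 (adjusted p = 0.0436) and had a log2 fold change of 0.31 without CBX1_W42A replicate 2. ANKRD36B passed only without control replicate 2 (adjusted p = 0.0337) or CBX1_W42A replicate 1 (adjusted p = 0.0454), and reached 0.130 without control replicate 1. Both comparisons use the same control libraries, so the control values enter both.

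The share of calls that were upward on the adjusted p alone depended on the scaling over all genes. It was 52.9% for CBX1 and 52.4% for CBX1_W42A against the control with TMM factors, 73.3% and 86.8% with upper-quartile factors, and 74.3% and 84.6% with the library size alone. For CBX1 against CBX1_W42A it was 58.8, 69.1 and 75.1% under these scalings. The direction of each member against the control was positive under every scaling.

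Between the readers, all 4 members had a negative log2 fold change for CBX1 against CBX1_W42A, and 0 of 4 were called in either direction by edgeR or DESeq2, where 0.795% of 19360 genes were higher and 0.201% lower with CBX1. On the adjusted p alone 0 of 4 passed, against 1.32% of genes upward and 0.925% downward. ANKRD36C had -0.31 (SE 0.13, 95% interval -0.59 to -0.04, adjusted p = 0.223, unadjusted p = 0.0257), and it alone of the 4 had an unadjusted p below 0.05, as 8.4% of genes did downward and 8.23% upward. ANKRD36B had -0.16 (95% interval -0.44 to 0.12, adjusted p = 0.605), ANKRD36 -0.12 (95% interval -0.40 to 0.17, adjusted p = 0.724) and ANKRD19P -0.07 (95% interval -0.30 to 0.16, adjusted p = 0.804). The sum of the paralogs had -0.20 (SE 0.13, adjusted p = 0.446). The groups overlapped for every member, while all CBX1 libraries were above the others for 10.1% of genes and below for 11.2%. Each 95% interval excluded a level higher with CBX1 by the log2 threshold of 0.75. The sign turned for ANKRD19P without CBX1_W42A replicate 3 (0.02) and for ANKRD36 without CBX1_W42A replicate 2 (0.04).

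**Figure D3:**
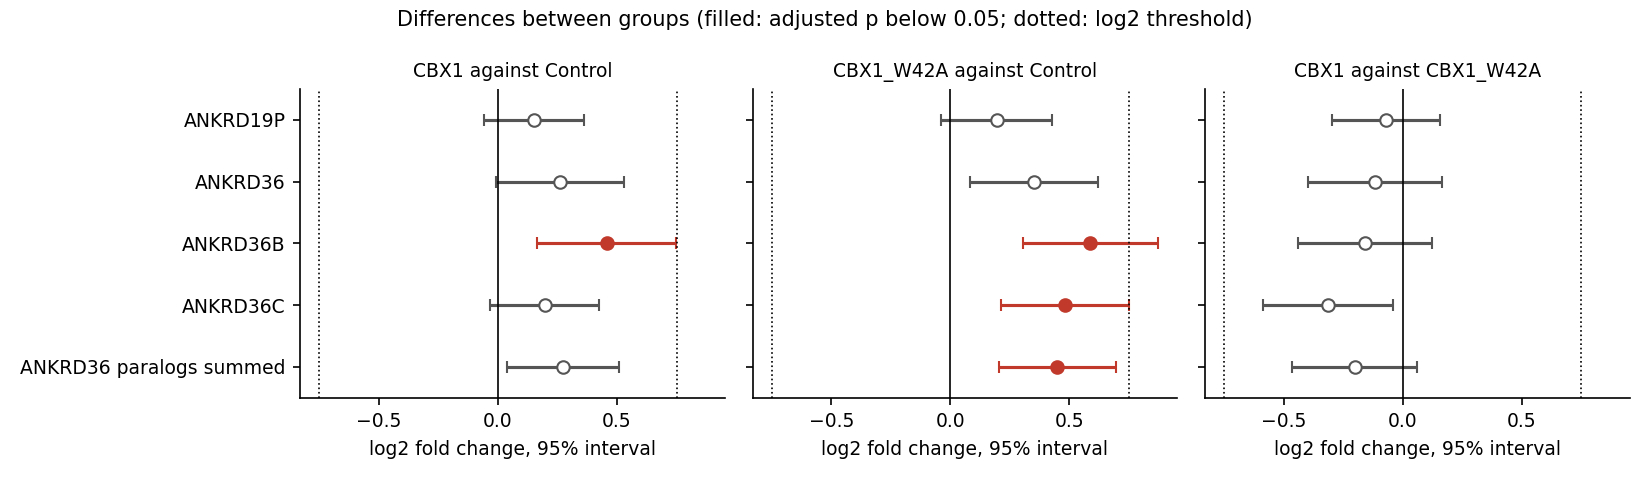
Log2 fold change of each member and of the summed paralogs with its 95% interval in the 3 comparisons; filled points have an adjusted p below 0.05 and dotted lines mark the log2 threshold of 0.75. All points lie inside the dotted lines, and the filled ones are ANKRD36B with either reader, and ANKRD36C and the sum with CBX1_W42A.

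The division of counts among the paralogs does not depend on the scaling of libraries. In the control, ANKRD36 took 40.0, 42.3 and 42.3% of the counts of the 3 paralogs, ANKRD36C 42.6, 38.2 and 40.1%, and ANKRD36B 17.5, 19.5 and 17.6%. With CBX1, ANKRD36B took 20.7, 20.9 and 20.4%, above every control library, and with CBX1_W42A it took 20.3, 18.9 and 21.2%, which overlapped the control. The mean share of ANKRD36B was 20.7 ± 0.265% with CBX1 and 18.2 ± 1.13% in the control (SD, n = 3), a difference of 2.45 percentage points (two-sided exact permutation test, p = 0.1, adjusted p = 0.45 over 9 comparisons). With 3 against 3 libraries this test cannot give a p below 0.1. The share of ANKRD36 was 38.8 ± 1.73% with CBX1_W42A, 2.73 percentage points under the control (exact permutation p = 0.2), and that of ANKRD36C 38.3 ± 1.70% with CBX1, 2.80 percentage points under CBX1_W42A (exact permutation p = 0.3). In the 9 comparisons of shares, the adjusted p was between 0.45 and 0.70.

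**Figure D4:**
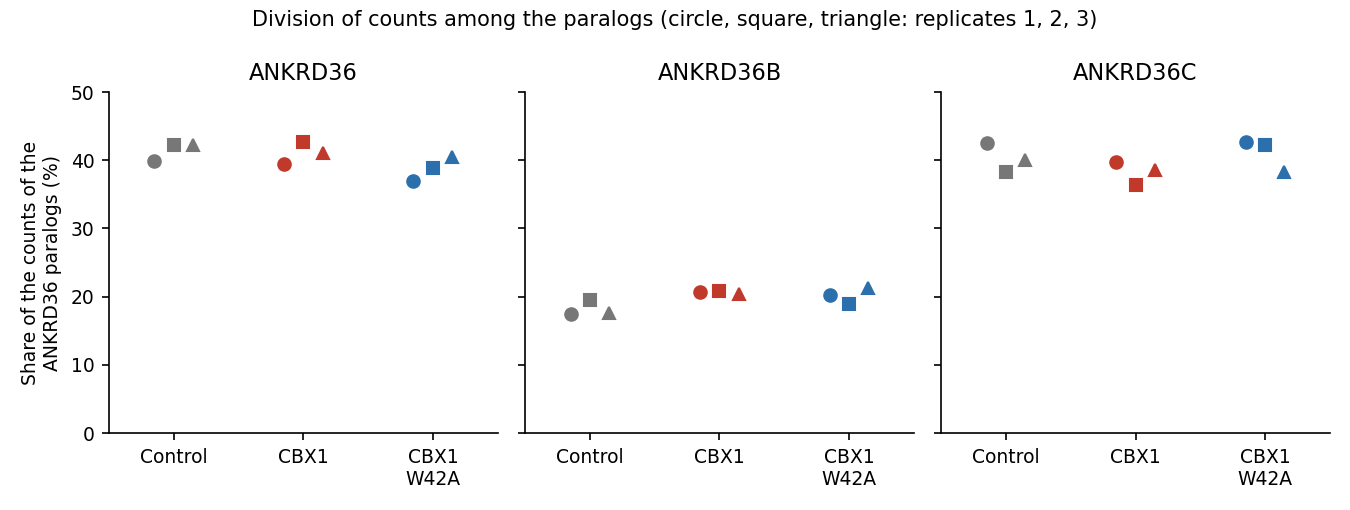
Share, in percent, of each paralog in the counts summed over ANKRD36, ANKRD36B and ANKRD36C, for every library; circles, squares and triangles are replicates 1, 2 and 3. ANKRD36B lies between 17.5 and 19.5% in the control and between 20.4 and 20.9% with CBX1.

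ANKRD19P shares its locus with other genes. ZNF484, a zinc finger gene on the opposite strand, lies wholly inside its span and covers 40.9% of it. ZNF484 held 170, 188 and 119 counts in the control, 153, 111 and 124 with CBX1, and 147, 173 and 134 with CBX1_W42A, so the counting told the strands apart there, although its strand setting is not given in the sources used here. At 17.4 ± 3.53 CPM in the control (SD, n = 3), ZNF484 was far below the 117 CPM of ANKRD19P, and its log2 fold changes were -0.32 with CBX1 (adjusted p = 0.211) and -0.19 with CBX1_W42A (adjusted p = 0.580) in edgeR's quasi-likelihood test. The pseudogene RP11-526D8.7 overlaps the 3′ end of ANKRD19P on the same strand, and there reads were counted for neither. In its remaining part RP11-526D8.7 held 4, 10 and 8 counts in the control, 20, 22 and 20 with CBX1, and 16, 12 and 4 with CBX1_W42A. With CBX1 it was enriched, with a log2 fold change of 1.44 (SE 0.45, adjusted p = 0.0312), and all CBX1 libraries were above all others. Taken singly, CBX1 was wholly above the control for 19.2% of genes tested and below for 18.3%. Against CBX1_W42A these shares were 10.1% and 11.2%. The enrichment rested on few counts and was lost in 5 of the 6 fits that left out a library (all but that without control replicate 2), with an adjusted p up to 0.127 and a log2 fold change of 1.07 without control replicate 1. It was also lost with the replicate number as a block, with an adjusted p of 0.0570.

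Genes whose span lies within 500 kb of a member numbered 115, of which 41 were tested in each comparison. With CBX1 against the control, 6 of 41 were enriched and 0 were depleted, against 7.06% and 0.34% of all genes tested. On the adjusted p alone 7 were higher and 5 lower, and the median log2 fold change was 0.06 against 0.03 over all genes. Of the enriched, 5 lay near ANKRD36, 3 of these also near ANKRD36B, and RP11-526D8.7 near ANKRD19P. Around ANKRD36C, 0 of 13 neighbors were enriched. AC017099.3, an antisense gene at chr2:98280680-98319527, held 66, 57 and 51 counts in the control, 178, 170 and 161 with CBX1, and 90, 125 and 79 with CBX1_W42A. The CBX1 libraries were all above the CBX1_W42A libraries, and these above the control libraries. Taken singly, the first held for 10.1% of genes tested (the reverse for 11.2%) and the second for 11.9% (the reverse for 12.8%). The log2 fold change of AC017099.3 with CBX1 was 1.53 (SE 0.16, adjusted p = 2.05e-05 in edgeR's quasi-likelihood test). AC159540.1, a lincRNA at chr2:98081083-98099107, beyond the 3′ end of ANKRD36B, had 0.99 (SE 0.16, adjusted p = 0.000636), with 106 to 142 counts in the control and 252 to 281 with CBX1. ANKRD23, which encodes a muscle ankyrin repeat protein, had 0.95 (SE 0.15, adjusted p = 0.000494), with 91 to 136 counts in the control and 200 to 239 with CBX1. FAM178B had 1.41 (SE 0.38, adjusted p = 0.0166) from 8 to 14 and 25 to 33 counts. RN7SL313P, a pseudogene of the signal recognition particle RNA, had 2.58 (SE 0.70, adjusted p = 0.0160) from 1 to 2 and 8 to 16 counts. AC017099.3, AC159540.1 and ANKRD23 kept their call in all 15 alternative fits. FAM178B lost it without CBX1 replicate 1 or control replicate 1, and RN7SL313P without CBX1 replicate 2 or control replicate 3.

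With CBX1_W42A against the control, 0 of the 41 neighbors were called by edgeR or DESeq2, with 5 higher and 5 lower at an unadjusted p below 0.05. Over all genes 0.974% were enriched and 0.0214% depleted, and 9.66% were higher and 9.61% lower at that unadjusted p. AC017099.3 had a log2 fold change of 0.64 (SE 0.22, adjusted p = 0.121), AC159540.1 of 0.49 (SE 0.18, adjusted p = 0.152) and ANKRD23 of 0.54 (SE 0.17, adjusted p = 0.0882). In the direct test of CBX1 against CBX1_W42A, AC017099.3 alone of the 41 was called, against 0.795% of all genes higher and 0.201% lower. Its log2 fold change was 0.87 (SE 0.19, adjusted p = 0.0143). That call was lost without CBX1 replicate 1 (adjusted p = 0.0880), CBX1_W42A replicate 1 (0.0591) or CBX1_W42A replicate 3 (0.0676). AC159540.1 had 0.48 (SE 0.14, adjusted p = 0.0708) and ANKRD23 0.38 (SE 0.14, adjusted p = 0.176). Over all 41 neighbors, 21 had a higher and 20 a lower value with CBX1 than with CBX1_W42A, with a median of 0.01.

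A list of 52 relatives held ANKRD18A, ANKRD18B, ANKRD18CP and ANKRD18DP and the ANKRD20A, ANKRD26, ANKRD30, ANKRD62, POTE and CCDC144 genes, duplicated families that carry ankyrin repeats or descend from genes that do. Most were too low to test, and the 17 tested with CBX1 against the control had a median control level of 2.90 CPM. With CBX1, 2 of 17 were enriched and 0 depleted by edgeR and by DESeq2, against 7.06% and 0.34% of all genes, and at an unadjusted p below 0.05 6 were higher and 0 lower, against 18.2% and 16.1%. With CBX1_W42A 2 of 16 were enriched and 0 depleted by both tools, against 0.974% and 0.0214%, and at an unadjusted p below 0.05 4 were higher and 0 lower, against 9.66% and 9.61%. The median log2 fold changes were 0.39 and 0.32, against 0.03 and 0.01 over all genes tested. A positive value was found for 13 of 17 and 16 of 16, and for 52.9% and 51.7% of all genes tested. The enriched ones were the same pseudogenes, ANKRD20A8P and CCDC144CP. ANKRD20A8P, at chr2:95476791-95523027, held 45, 43 and 39 counts in the control, 85, 104 and 103 with CBX1, and 85, 97 and 88 with CBX1_W42A. Its reader libraries overlapped each other and were all above the control. Taken singly, CBX1 was wholly above the control for 19.2% of genes tested (below for 18.3%) and CBX1_W42A for 11.9% (below for 12.8%). The log2 fold changes of ANKRD20A8P were 1.17 (SE 0.19, adjusted p = 0.000704) with CBX1 and 0.96 (SE 0.22, adjusted p = 0.0292) with CBX1_W42A. CCDC144CP, at chr17:20224477-20306870, held 25, 20 and 27 counts, then 66, 40 and 58, then 77, 71 and 54, with log2 fold changes of 1.154 (SE 0.27, adjusted p = 0.00783) and 1.35 (SE 0.26, adjusted p = 0.0163). Between the readers 0 of 17 were called by edgeR or DESeq2 (1 higher and 0 lower at an unadjusted p below 0.05), with ANKRD20A8P at 0.18 (adjusted p = 0.667), CCDC144CP at -0.22 (adjusted p = 0.685) and a median of -0.01. With CBX1_W42A, the call of CCDC144CP was lost without control replicate 1 (adjusted p = 0.0653). That of ANKRD20A8P held only without CBX1_W42A replicate 1 among the fits leaving out a library, with an adjusted p just above 0.05 without control replicate 2 and up to 0.0968 without control replicate 1. These families are duplicated too, so their counts carry the same uncertainty about shared reads.

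All other genes with an ANKRD symbol numbered 54, most of them ankyrin repeat genes outside these families. By this rule the list also took in ANKRD18EP and the ANKRD36 pseudogenes ANKRD36BP1, ANKRD36BP2 and ANKRD36P1, which are copies of the families above. Of these 4 only ANKRD36BP2 had enough counts to be tested, with 4 to 7 counts in the control, 3 to 8 with CBX1 and 3 to 10 with CBX1_W42A and log2 fold changes of -0.05 and 0.09 against the control (adjusted p = 0.970 and 0.957 in edgeR). Of 38 tested with CBX1, ANKRD23, also among the enriched neighbors, was enriched and 0 were depleted by edgeR or DESeq2. At an unadjusted p below 0.05, 6 were higher and 5 lower. Over all genes the shares were 7.06% and 0.34%, and 18.2% and 16.1%. Of 38 tested with CBX1_W42A, ANKRD35 was enriched and 0 depleted (6 higher and 3 lower). Here the shares over all genes were 0.974% and 0.0214%, and 9.66% and 9.61%. The median log2 fold changes of these other ANKRD genes were 0.06 and 0.08. ANKRD35 held 8, 15 and 6 counts in the control, 18, 22 and 11 with CBX1, and 27, 46 and 35 with CBX1_W42A, with a log2 fold change of 1.77 with CBX1_W42A (SE 0.40, adjusted p = 0.0303). The call of ANKRD35 was lost without CBX1_W42A replicate 2 or 3 or control replicate 1 or 3. Between the readers 0 of 39 were called by either tool (2 higher and 7 lower at an unadjusted p below 0.05), and the median was -0.06. Over all genes 0.795% were called higher and 0.201% lower, and 8.23% and 8.4% had an unadjusted p below 0.05.

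**Figure D5:**
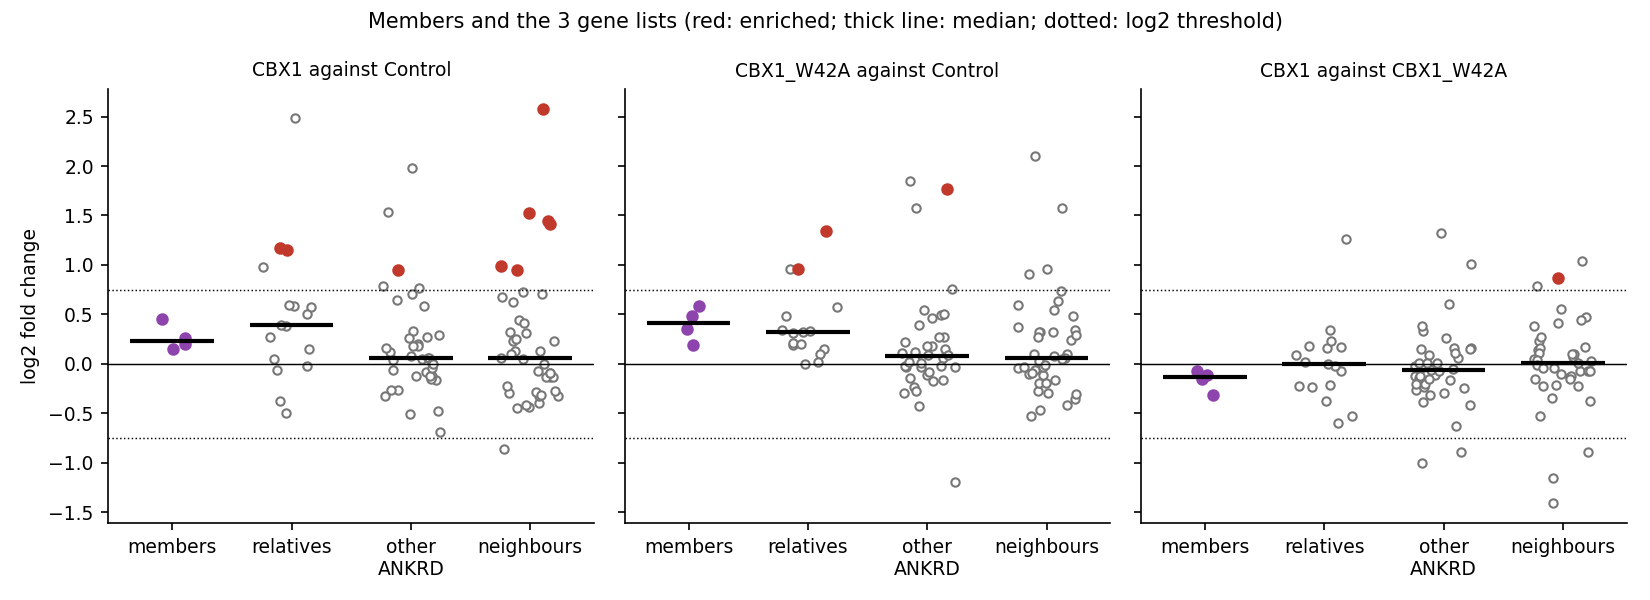
Log2 fold change of the 4 members and of the tested relatives, other ANKRD genes and neighbors in the 3 comparisons; red points passed both thresholds, thick lines are medians and dotted lines mark the log2 threshold of 0.75. With CBX1 6 neighbors and 2 relatives are red, and no member is red in any comparison.

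Over the 9 libraries, the 3 paralogs followed each other and ANKRD19P did not follow them. The Pearson correlation of log2 CPM was 0.92 between ANKRD36 and ANKRD36B, 0.86 between ANKRD36 and ANKRD36C, and 0.86 between ANKRD36B and ANKRD36C. For ANKRD19P it was 0.06 with ANKRD36, 0.23 with ANKRD36B and 0.13 with ANKRD36C. These are descriptions over 9 libraries that share groups and scaling, and the paralogs share sequence. Other genes followed each paralog more closely. For ANKRD36, ANKRD36B ranked 8 and ANKRD36C 28 by this correlation. For ANKRD36B, ANKRD36 ranked 11 and ANKRD36C 80, and for ANKRD36C, ANKRD36 ranked 37 and ANKRD36B 38. The genes named next were picked as the highest of many over few libraries, so their values are high in part by selection. Among the 14304 other genes averaging 20 or more counts, those most like ANKRD36 were DCBLD2 (0.95), NBPF10 (0.94) and PTCHD2 (0.94). Most like ANKRD36B were MURC (0.95), ELAVL3 (0.94) and NPIPB6 (0.94), and most like ANKRD36C were RP6-65G23.3 (0.96), KIAA1211L (0.96) and WEE1 (0.94). For ANKRD19P they were LA16c-366D1.3 (0.94), RTDR1 (0.94) and MXRA8 (0.92).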

How the data were processed

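The authors trimmed reads with fastp 0.23.1, aligned them to hg19 with HISAT2 2.1.0 and counted them with featureCounts 2.0.1 on GENCODE v19, and deposited raw counts per gene. Settings for strand and multiply mapped reads are not given in the sources used here. All 9 libraries were used, and 0 count columns and 0 entries without a gene were left out. Totals were 8379542 to 11082852 counts. Each comparison used the 6 libraries of 2 groups, TMM factors and edgeR 4.0.16 (R 4.3.3), for genes with more than 18 counts over the 6, as in the study's methods, which used DESeq2 1.34.0. On simulated counts for CBX1 against the control, edgeR recovered 199 of 200 genes changed by log2 1.5 among 18837 and called 3 others. The changed genes were drawn from those without low counts, and the change was larger than that of any member. The recovery therefore does not tell how well smaller changes or low counts are found.

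Printed CPM used TMM factors of all 9 libraries unless stated, the marker levels used the plain library total, and log2 CPM used a prior count of 2. Alternatives were DESeq2 1.42.0, RLE, upper-quartile or no factors, 3 other filters, 1 fit of all groups, a replicate block and leaving out each library. Sequences came from GRCh37, GENCODE v44 lifted to it, and RefSeq, aligned with mafft 7.526. The members, lists and tests were chosen with earlier results of these data known. Named were the members, each list gene called (at most 6 a list and comparison), and the 3 genes most correlated with each member; markers and genes overlapping ANKRD19P were added.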

Additional observations from a re-analysis of the deposited data

How the results depend on the processing

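In the 15 alternatives of each comparison, 0 members passed both thresholds, and against the control each member had a positive log2 fold change. Summed over the paralogs, CBX1 against the control passed on the adjusted p with upper-quartile factors (log2 fold change 0.36), the library size alone (0.36) and no filter (0.27). Leaving out single libraries gave a log2 fold change of 0.13 to 0.38 for this sum and of 0.31 to 0.52 for that with CBX1_W42A. It gave ANKRD36B 0.31 to 0.58 with CBX1 and 0.49 to 0.67 with CBX1_W42A, and ANKRD36C 0.31 to 0.59 with CBX1_W42A. For CBX1 against CBX1_W42A the ranges that crossed 0 were -0.14 to 0.018 for ANKRD19P (the latter without CBX1_W42A replicate 3) and -0.28 to 0.036 for ANKRD36 (the latter without CBX1_W42A replicate 2); the cause was not tested. Per kb of exon, the control level of ANKRD19P was 27.3, 37.9 and 26.6 times that of ANKRD36, ANKRD36B and ANKRD36C, by construction from its short exons.

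With at least 10 counts in every library, 3 neighbors were enriched with CBX1 and 0 other ANKRD genes with CBX1_W42A, since fewer genes were tested. Without single libraries, the enriched neighbors numbered 4 to 6 with CBX1 and 0 to 1 against CBX1_W42A, relatives with CBX1_W42A 0 to 2, and other ANKRD genes 0 to 1 higher with CBX1_W42A and 0 to 1 lower with CBX1.

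Over all genes, enriched and depleted numbered 1330 and 64 for CBX1 and 182 and 4 for CBX1_W42A against the control, and 154 and 39 between the readers. They became 838 and 39 for CBX1 with at least 10 counts, and the depleted 33 with upper-quartile factors and 31 with the library size alone. For CBX1_W42A the enriched became 338 without a filter, 282 with all 9 libraries and 42 to 111 without single libraries, and the depleted 0 to 9. Between the readers they became 244 and 70 without a filter, and as few as 66 and 17 without CBX1 replicate 1.

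The labels do not say whether equal replicate numbers pair the libraries, and the main tests did not pair them. Same-numbered libraries were correlated in their deviations from the group means. The correlations were -0.22 to 0.04 for CBX1 and -0.11 to 0.14 for CBX1_W42A with the control. Between the readers all 3 were positive (0.17, 0.08 and 0.12), and every library but CBX1 replicate 2 correlated best with its own number. With the replicate number as a block, the log2 fold change of ANKRD36B was 0.45 with CBX1 (adjusted p = 0.0420 in edgeR) and 0.59 with CBX1_W42A. No member's call changed. Between the readers, the edgeR adjusted p of ANKRD36C became 0.0893 with the block, against 0.223 without it. For the summed paralogs it became 0.247 against 0.446, with an unadjusted p of 0.0438 against 0.122. The genes called higher and lower between the readers became 250 and 66. On the adjusted p alone they became 569 and 467, against 255 and 179 without the block. Counts limit RN7SL313P, FAM178B, RP11-526D8.7 and ANKRD35, and shared reads limit the paralogs, which none of these alternatives separates.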
